A study of Mus musculus with 19 samples.

Results

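Expression of 10 genes that receive or terminate extracellular nucleotide and adenosine signals was described in brain cells carrying CD11b, from wildtype mice and from mice lacking PARK7/DJ-1 (KO). The genes were 2 P2X channels (P2rx4 and P2rx7), 2 P2Y receptors (P2ry6 and P2ry14), 4 adenosine receptors (Adora1, Adora2a, Adora2b and Adora3) and 2 ectonucleotidases (Entpd1 and Nt5e). They were chosen by symbol for their roles, among 56980 genes in the count table, and the symbols were matched to Ensembl identifiers. Gene positions below are those of the GENCODE annotation of GRCm39. All 10 passed the filter on low counts that left 18739 genes for testing.

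The cells came from male mice aged 3 to 4 months. KO mice of a whole-body PARK7/DJ-1 gene-trap line and their wildtype littermates received 1 intraperitoneal injection of bacterial lipopolysaccharide (LPS, 4 µg/g body weight) or of saline vehicle (PBS), and their brains were taken 6 h later. CD11b+ cells, which carry a surface integrin subunit of microglia and other myeloid cells, were enriched with magnetic beads, and 1 library was made per mouse. There were 4 wildtype and 5 KO libraries after PBS, and 5 wildtype and 5 KO libraries after LPS. Because the gene trap is carried by every cell of the KO animals, a difference between genotypes could not be assigned to CD11b+ cells.

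Total counts ranged from 11936364 to 22788884 per library, so that 3 counts corresponded to at most 0.256 CPM (counts scaled to a common library size). Park7 averaged 22.3 ± 2.08 CPM (SD, n = 4) in wildtype and 1.66 ± 0.961 CPM (SD, n = 5) in KO libraries after PBS, and 25.2 ± 3.90 (SD, n = 5) and 3.44 ± 1.72 CPM (SD, n = 5) after LPS. The 10 microglial markers that could be matched were detected in every library, with summed levels of 25492 to 40996 CPM after PBS and 10869 to 17411 CPM after LPS. Markers of other brain cells were present too, and the summed astrocyte markers ranged from 421 to 4891 CPM and the oligodendrocyte markers from 522 to 11290 CPM. Neutrophil and monocyte markers summed to 46.2 to 214 CPM after PBS and to 159 to 603 CPM after LPS, with all 10 detected in every library, whereas 10 lymphocyte markers together stayed between 0.417 and 2.77 CPM. In such bulk samples, fewer cells of a type and less RNA per cell cannot be told apart.

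ATP released from stressed or dying cells opens P2X channels, which are ligand-gated cation channels, and together with ADP and uracil nucleotides it activates P2Y receptors, which couple to G proteins. At the cell surface, CD39, encoded by Entpd1, converts ATP and ADP to AMP, and CD73, encoded by Nt5e, converts AMP to adenosine. Adenosine then acts on receptors that lower cyclic AMP (Adora1 and Adora3) or raise it (Adora2a and Adora2b). Resting microglia sense nucleotides with their processes through P2ry12, and activated microglia are known to exchange this receptor for others, Adora2a among them.

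Levels of different genes were compared as CPM per kilobase of annotated exon. In wildtype mice after PBS, Entpd1 stood above the other genes with 137 ± 15.9 CPM per kilobase (SD, n = 4). P2rx7 with 29.3 ± 5.81 and P2ry6 with 27.6 ± 2.73 CPM per kilobase followed, and their libraries overlapped. Adora3 came next with 18.1 ± 3.80 CPM per kilobase, above P2rx4 with 8.89 ± 0.860, and neither overlapped its neighbour in this order. The remaining genes were low, from 2.45 ± 1.87 CPM per kilobase for Adora1 and 1.91 ± 1.31 for Adora2b to 0.669 ± 0.354 for Adora2a, 0.400 ± 0.199 for P2ry14 and 0.398 ± 0.190 for Nt5e, and each overlapped the next. KO mice after PBS had the same upper part of the order, with Entpd1 at 132 ± 14.6 CPM per kilobase (SD, n = 5). After LPS, Entpd1, Adora3 and P2ry6 were no longer separated. In wildtype mice they averaged 40.8 ± 11.2, 40.3 ± 5.67 and 34.8 ± 8.15 CPM per kilobase (SD, n = 5). In KO mice the same genes averaged 52.2 ± 21.9 and 50.4 ± 19.1 (SD, n = 5) for Entpd1 and Adora3 and 37.6 CPM per kilobase for P2ry6, which ranged from 26.3 to 49.8. Below them P2rx4, Adora2b and P2rx7 overlapped one another, between 7.19 and 11.8 CPM per kilobase on average in both genotypes.

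**Figure D1:**
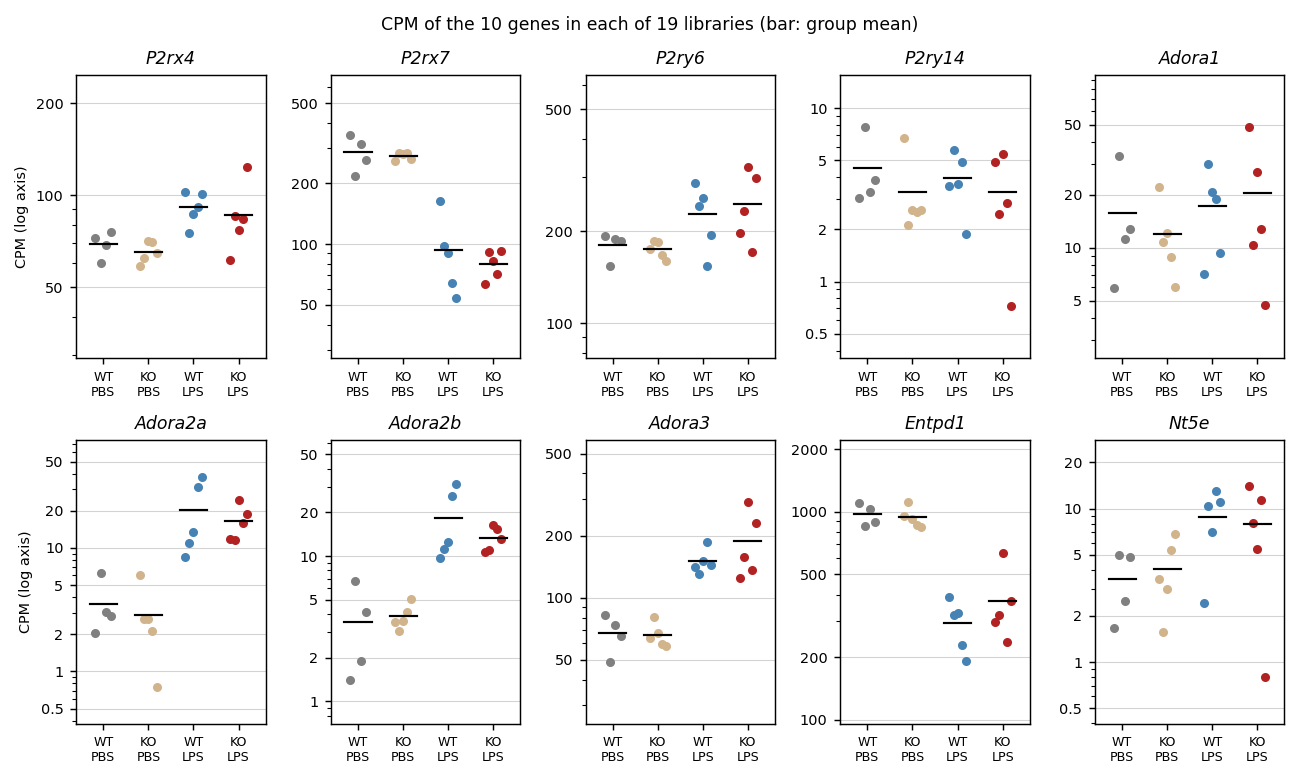
CPM of each of the 10 genes in the 19 libraries, on log axes whose ranges differ between genes; points are libraries, bars are group means, and the groups are wildtype (WT) and KO mice after PBS or LPS. Adora2a, Adora2b and Adora3 lay higher and P2rx7 and Entpd1 lower after LPS in both genotypes without overlap, and KO and wildtype libraries overlapped for every gene.

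LPS and PBS were then compared within each genotype, to ask which of these genes differed 6 h after LPS. Adora2a, Adora2b and Adora3 rose and P2rx7 and Entpd1 fell in both genotypes. A gene was called when edgeR's quasi-likelihood test gave a Benjamini-Hochberg adjusted p under 0.05 over 18739 genes together with a log2 fold change of at least 0.5 in size. In wildtype mice 3 of the 10 genes were called higher, where 18.4% of all genes tested were, and 2 were called lower, where 17.4% were. In KO mice 3 were called higher against 20.1% of all genes, and 2 lower against 19%. At any fold change, 4 passed as higher in wildtype mice, where 22% of all genes did, and 5 in KO mice, where 24.2% did. For 5 of the 10 genes the LPS and PBS libraries did not overlap in wildtype mice, where this held for 37.8% of all genes, and for 5 in KO mice, against 32.8%. These shares were not far from those over all genes, so the account that follows is of single genes. The median log2 fold change of the 10 genes was 0.37 in wildtype and 0.64 in KO mice, beside -0.06 and -0.01 over all genes tested.

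The adenosine receptors that rose after LPS were those coupled to a rise in cyclic AMP and Adora3, which was the most abundant of the family. Adora2a (ENSMUSG00000020178, chr10:75152560-75170628), in wildtype mice, measured 2.03, 6.24, 3.02 and 2.79 CPM after PBS and 8.46, 11.0, 13.6, 31.0 and 37.6 CPM after LPS. In KO mice it measured 6.01, 2.68, 2.64, 2.15 and 0.755 CPM after PBS and 11.7, 11.6, 24.3, 15.9 and 18.8 CPM after LPS. Every LPS library lay above every PBS library in each genotype, and the highest PBS values came from the libraries with the most astrocyte and oligodendrocyte marker reads in their groups. The log2 fold change was 2.53 ± 0.53 (SE) in wildtype mice, a 5.76-fold rise (95% confidence interval 2.66 to 12.5; edgeR adjusted p = 0.000760). In KO mice it was 2.54 ± 0.49 (SE), a 5.80-fold rise (95% confidence interval 2.84 to 11.8; edgeR adjusted p = 0.000291).

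Adora2b (ENSMUSG00000018500, chr11:62139804-62157279), the low-affinity adenosine receptor, was at 1.41, 6.72, 1.90 and 4.09 CPM in wildtype mice after PBS and at 9.77, 11.2, 12.6, 25.8 and 31.5 CPM after LPS. The KO libraries held 3.49, 3.05, 3.55, 4.13 and 5.07 CPM after PBS and 10.6, 11.0, 16.3, 15.4 and 13.2 CPM after LPS. Again the LPS and PBS libraries did not overlap, and the wildtype LPS libraries 4 and 5, which were highest for Adora2a, were also highest for Adora2b. The log2 fold change was 2.36 ± 0.42 (SE) in wildtype mice (edgeR adjusted p = 0.000161) and 1.78 ± 0.38 (SE) in KO mice (edgeR adjusted p = 0.000728), which correspond to 5.14-fold and 3.45-fold rises.

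Adora3 (ENSMUSG00000000562, chr3:105778174-105816242), a receptor that lowers cyclic AMP, read 82.2, 48.9, 73.7 and 65.3 CPM in wildtype mice after PBS and 140, 131, 151, 186 and 143 CPM after LPS. In KO mice the values were 63.4, 80.9, 67.4, 59.4 and 58.4 CPM after PBS and 125, 157, 291, 135 and 231 CPM after LPS. The KO LPS libraries 3 and 5 were above all others, and no LPS library reached down to a PBS library. Within the groups, the libraries with the most and with the least Adora3 were those with the most and the least border macrophage marker reads in 3 of 4 groups each, while 4 of these 7 markers were called lower after LPS in each genotype. Adora3 rose 2.22-fold in wildtype mice, with a log2 fold change of 1.15 ± 0.22 (SE; edgeR adjusted p = 0.000282), and 2.85-fold in KO mice, with 1.51 ± 0.20 (SE; edgeR adjusted p = 6.28e-06). Of its annotated exon bases 670 were shared with Gm53046, which had 0 counts in every library, and 154 with Tmigd3, which had at most 10. How reads in shared bases were counted is not given in the sources used here, and the effect on Adora3 was not tested.

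The sequences before the start sites of these 3 receptors are shown because the genes rose together. They were read from GRCm39 for 250 bases before the start of each gene's Ensembl canonical transcript, 5′ to 3′, and capitals mark matches to the motifs searched. The searched window ran on for 50 bases after the start, on both strands, in these genes and in 21770 protein-coding promoters.
Adora2a (chr10:75152310-75152559, plus strand): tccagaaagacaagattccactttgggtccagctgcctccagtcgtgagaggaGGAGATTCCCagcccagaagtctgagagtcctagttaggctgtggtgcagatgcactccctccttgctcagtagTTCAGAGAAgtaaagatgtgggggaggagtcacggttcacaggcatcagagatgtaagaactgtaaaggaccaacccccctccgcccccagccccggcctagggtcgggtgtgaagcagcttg
Adora2b (chr11:62139554-62139803, plus strand): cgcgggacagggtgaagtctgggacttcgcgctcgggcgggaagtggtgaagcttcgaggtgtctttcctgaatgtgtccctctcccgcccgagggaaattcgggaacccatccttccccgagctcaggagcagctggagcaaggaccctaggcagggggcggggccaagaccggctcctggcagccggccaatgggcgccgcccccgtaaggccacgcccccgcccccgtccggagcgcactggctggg
Adora3 (chr3:105811487-105811736, plus strand): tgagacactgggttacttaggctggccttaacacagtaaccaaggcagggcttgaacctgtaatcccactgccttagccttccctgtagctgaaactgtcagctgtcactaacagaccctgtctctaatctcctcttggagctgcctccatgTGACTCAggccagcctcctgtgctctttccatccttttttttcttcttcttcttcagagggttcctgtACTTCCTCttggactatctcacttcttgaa
Adora2a held a match to the kappaB consensus from -197 to -188, on the minus strand, and to the GAS element TTCNNNGAA from -123 to -115, where positions count back from the start. Such matches were present in 4.87% and 8.81% of all promoters. In Adora3 there was an AP-1 motif, TGANTCA, from -98 to -92 and a PU.1 motif, GAGGAAGT, on the minus strand from -30 to -23, which 7.14% and 3.07% of all promoters held. The Adora2b window held none of the 7 motifs searched, the others being the CRE TGACGTCA (2.44% of promoters), the IRF element GAAANNGAA (8.78%) and the core of the hypoxia response element ACGTG (20.7%). The 3 promoters shared no motif, and a match of letters describes the sequence and does not show binding.

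Adora1 (ENSMUSG00000042429, chr1:134126948-134163579), the other receptor that lowers cyclic AMP, was not called in either genotype. Its values in wildtype mice were 5.88, 33.1, 11.2 and 12.7 CPM after PBS and 7.03, 29.9, 20.6, 18.8 and 9.37 CPM after LPS. Those in KO mice were 22.2, 10.7, 12, 8.84 and 5.94 CPM after PBS and 48.2, 10.3, 26.8, 12.7 and 4.69 CPM after LPS. Libraries of each group were spread far more widely than the groups differed. The log2 fold change was 0.13 (95% confidence interval -1.12 to 1.38) in wildtype and 0.79 (-0.40 to 1.97) in KO mice, with edgeR adjusted p = 0.892 and 0.277. The library with the most Adora1 was the one with the most oligodendrocyte, neuron, endothelial and mural marker reads in 4 of 4 groups, and the library with the least Adora1 had the least of these in 2 of 4 (oligodendrocyte) or 3 of 4 groups. For astrocyte markers the highest library was shared in 3 of 4 groups and the lowest in 4 of 4. With the summed markers of these other brain cells as a covariate, an alternative chosen after seeing the data, the log2 fold changes were 0.28 and 0.48, with edgeR adjusted p = 0.229 and 0.0260, the latter still under the fold minimum. Their part in the spread was not tested further. Of Adora1's annotated exon bases 52.4% were shared with Mybph on the opposite strand, which had 7 to 74 counts, against 65 to 858 for Adora1. The strand setting of the counting is not given in the sources used here, and without strand the reads of the 2 genes cannot be told apart over these bases, so that Adora1's level is uncertain.

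**Figure D2:**
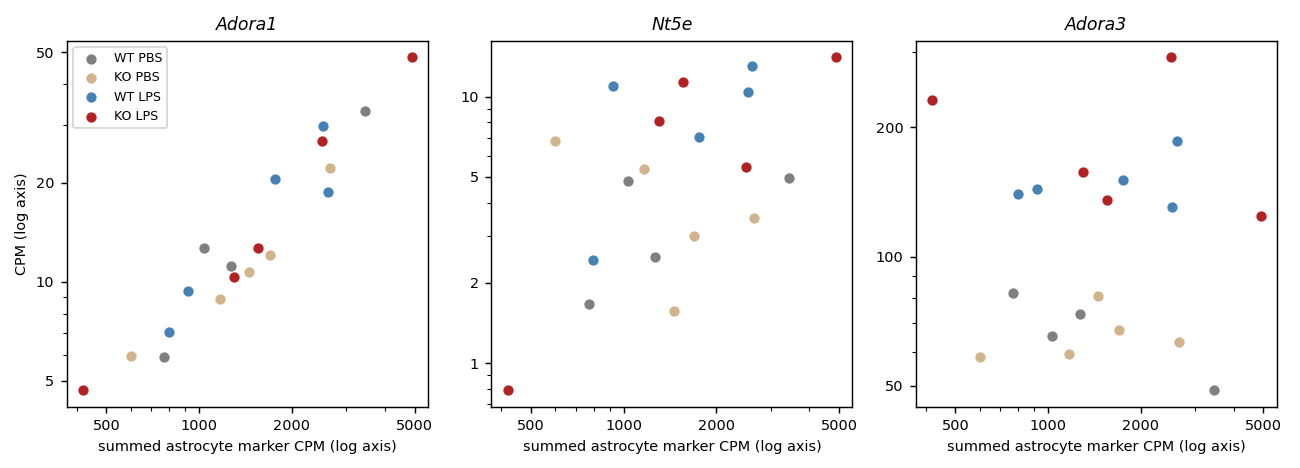
CPM of Adora1, Nt5e and Adora3 (vertical, log axis) against the summed CPM of 7 astrocyte markers (horizontal, log axis) in each of 19 libraries, colored by group. Adora1 was lowest in the library with 421 and highest in the library with 4891 CPM of astrocyte markers, whereas Adora3 separated by treatment across the whole range.

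Adora3 made up most of the adenosine receptor transcripts in every library. As a share of the counts per kilobase of the 4 receptors, it was 78.1% ± 15.1 (SD, n = 4) in wildtype mice after PBS and 72.1% ± 8.44 (SD, n = 5) after LPS, and 79.7% ± 4.58 and 77.7% ± 6.73 (SD, n = 5 each) in KO mice. Adora2b's share was 8.32% ± 5.75 after PBS and 16.6% ± 6.35 after LPS in wildtype mice, and 9.67% ± 3.00 and 11.8% ± 3.00 in KO mice. The share of Adora2a was 2.90% ± 1.54 and 6.41% ± 3.17 in wildtype mice, and 2.38% ± 1.51 and 4.92% ± 0.703 in KO mice. Adora1 held 10.7% ± 8.09 and 4.90% ± 3.10 in wildtype mice, and 8.26% ± 3.84 and 5.56% ± 5.63 in KO mice. In exact two-sided permutation tests of LPS against PBS, the smallest p among the 4 receptors was 0.0317, for Adora2a in KO mice, and no share passed after Benjamini-Hochberg adjustment over the 20 share tests (adjusted p = 0.212 for that one).

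Of the P2X channels, P2rx7 fell after LPS and P2rx4 was not called. P2rx7 (ENSMUSG00000029468, chr5:122781942-122830400), a channel of low ATP affinity known for triggering the NLRP3 inflammasome, stood at 347, 218, 315 and 263 CPM in wildtype mice after PBS and at 163, 97.6, 90.6, 64.4 and 54.3 CPM after LPS. KO libraries contained 259, 283, 280, 282 and 266 CPM after PBS and 63.4, 91.7, 82.5, 70.8 and 92.9 CPM after LPS. All LPS libraries were below all PBS libraries, and the lowest wildtype LPS libraries were again 4 and 5. P2rx7 fell by 1.60 ± 0.23 (SE) on the log2 scale in wildtype mice (3.04-fold lower; edgeR adjusted p = 1.56e-05) and by 1.77 ± 0.22 (SE) in KO mice (3.42-fold lower; edgeR adjusted p = 2.64e-06). Of the 10 microglial markers 9 were called lower after LPS in each genotype too, and the library with the most P2rx7 had the most microglial marker reads in 3 of 4 groups and that with the least had the least in 1 of 4. Of 7 markers of border macrophages, which carry CD11b as well, 4 were called lower in each genotype, and the library with the least P2rx7 had the least of their reads in 3 of 4 groups and that with the most had the most in 1 of 4. The part of either cell type in the fall of P2rx7 was not tested. The bases before its start site are shown as those of a gene that fell, and capitals mark an AP-1 motif from -201 to -195. The same motif was found in the windows of Adora3 and of Adora1 and P2ry6, which were not called.
P2rx7 (chr5:122781692-122781941, plus strand): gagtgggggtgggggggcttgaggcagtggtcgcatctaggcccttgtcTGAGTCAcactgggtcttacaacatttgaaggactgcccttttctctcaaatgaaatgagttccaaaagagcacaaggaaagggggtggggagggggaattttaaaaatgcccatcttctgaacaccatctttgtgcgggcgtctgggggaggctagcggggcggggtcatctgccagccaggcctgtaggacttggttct

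P2rx4 (ENSMUSG00000029470, chr5:122845541-122867803), a channel of higher ATP affinity that is known to be induced in microglia after nerve injury, lies beside P2rx7 on the plus strand. It was at 72.2, 60.1, 69.0 and 75.7 CPM in wildtype mice after PBS and at 103, 75.5, 87.0, 91.7 and 101 CPM after LPS. The corresponding KO values were 58.5, 62.4, 70.6, 70.5 and 64.6 CPM after PBS and 61.3, 85.7, 77.1, 83.7 and 124 CPM after LPS. The groups overlapped in both genotypes by 1 LPS library, which was the one richest in oligodendrocyte marker reads. The log2 fold change was 0.40 in both genotypes, with a 95% confidence interval of 0.09 to 0.72 in wildtype and of 0.10 to 0.70 in KO mice. Its edgeR adjusted p was 0.0394 and 0.0265, so P2rx4 passed the test on p and not the fold minimum. The pass on p was not stable, and over the other settings its adjusted p ran from 0.00395 to 0.106 in wildtype and from 0.00216 to 0.0736 in KO mice. With the replicate block it was 0.0675 in wildtype mice. Leaving out 1 library at a time, it reached 0.0966 in wildtype mice (without PBS library 2) and 0.106 in KO mice (without LPS library 5).

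As a share of the counts per kilobase of both channels, P2rx7 was 79.3%, 74.4%, 78.5% and 73.5% in the wildtype libraries after PBS and 55.9%, 50.8%, 45.4%, 35.9% and 30.1% after LPS. In the KO libraries it was 77.9%, 78.4%, 76.0%, 76.1% and 76.7% after PBS and 45.2%, 46.1%, 46.1%, 40.3% and 37.4% after LPS. The mean share thus went from 76.4% ± 2.91 (SD, n = 4) to 43.6% ± 10.6 (SD, n = 5) in wildtype mice and from 77.0% ± 1.07 to 43.0% ± 3.94 (SD, n = 5 each) in KO mice, and the libraries did not overlap. This ratio within a library does not depend on library scaling. The exact two-sided permutation p was 0.0159 in wildtype and 0.00794 in KO mice, the smallest that these group sizes allow, and both gave 0.159 after adjustment over the 20 share tests, which neither passed. A share at its smallest p can pass that adjustment only if several others are also small, so no conclusion is drawn from it.

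**Figure D3:**
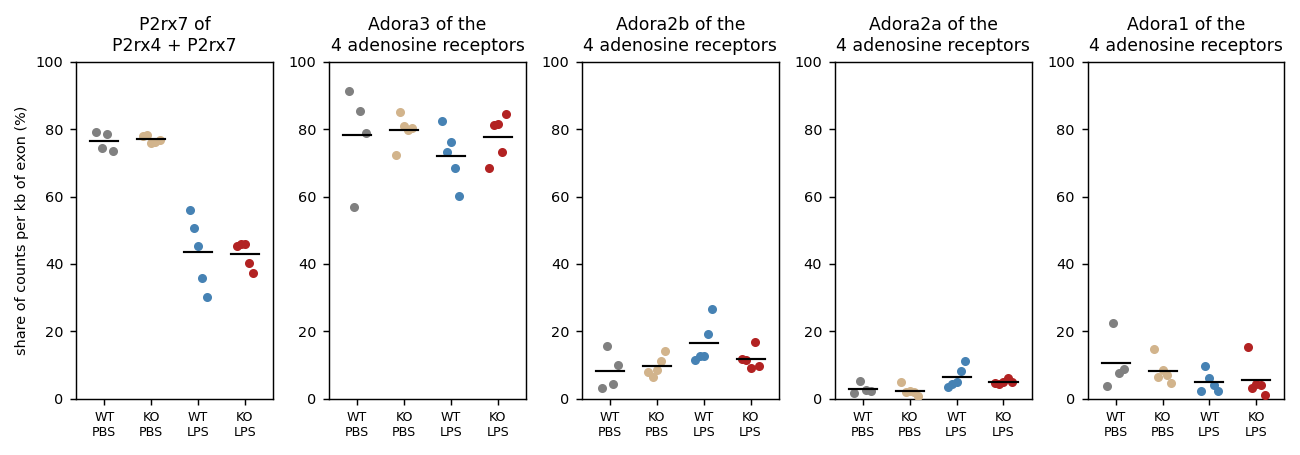
Share (%) of P2rx7 in the counts per kilobase of P2rx4 and P2rx7 together, and of each adenosine receptor in the sum of the 4 receptors, per library; points are libraries and bars are group means. P2rx7's share lay between 73.5% and 79.3% after PBS and between 30.1% and 55.9% after LPS, while Adora3 held 56.8% or more of the adenosine receptor counts per kilobase in every library.

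The P2Y receptors among the 10 genes were not called. P2ry6 (ENSMUSG00000048779, chr7:100585308-100624173), the UDP receptor that is known to drive microglial phagocytosis, was at 192, 153, 188 and 185 CPM in wildtype mice after PBS and at 288, 241, 257, 154 and 195 CPM after LPS. KO mice had 175, 186, 184, 166 and 159 CPM after PBS and 197, 233, 325, 171 and 298 CPM after LPS. At least 1 LPS library of each genotype lay within the range of its PBS libraries. The library with the most P2ry6 had the most microglial marker reads in 3 of 4 groups, and that with the least had the least in 4 of 4. Its log2 fold change was 0.34 ± 0.18 (SE) in wildtype mice (edgeR adjusted p = 0.151) and 0.49 ± 0.17 (SE) in KO mice (edgeR adjusted p = 0.0239), the latter just under the fold minimum. With only the KO groups in the fit it was 0.51, past that minimum (edgeR adjusted p = 0.0297), and without the 4 libraries richest in oligodendrocyte marker reads it was 0.57 (edgeR adjusted p = 0.0276). Its pass on p was lost without a filter on low counts (0.46; edgeR adjusted p = 0.0593), and without KO LPS library 3 (0.37; edgeR adjusted p = 0.0816) or 5. With 1 library left out at a time, P2ry6 was called in KO mice in 5 of 10 fits, with log2 fold changes of 0.37 to 0.61 over all of them.

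P2ry14 (ENSMUSG00000036381, chr3:59021276-59061134), the receptor for UDP-glucose and UDP, was near the lower end of what was measured, with 10 to 129 counts per library. It read 3.02, 7.81, 3.28 and 3.85 CPM in wildtype mice after PBS and 3.57, 5.71, 3.67, 4.87 and 1.87 CPM after LPS, and in KO mice 6.68, 2.12, 2.59, 2.51 and 2.59 CPM after PBS and 4.89, 2.45, 5.44, 2.85 and 0.721 CPM after LPS. The ranges overlapped almost entirely. The 95% confidence interval of its log2 fold change ran from -1.18 to 0.81 in wildtype mice and from -0.95 to 0.95 in KO mice, so that a change of up to about that size was not detectable. In 3 of 4 groups the library with the most P2ry14 was also the one with the most oligodendrocyte, endothelial, mural and neuron marker reads. The lowest library was shared in 1 of 4 groups with oligodendrocyte, 2 of 4 with endothelial and with mural, and 3 of 4 with neuron markers.

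Of the ectonucleotidases, Entpd1 fell after LPS in both genotypes and Nt5e did not pass the test in either. Entpd1 (ENSMUSG00000048120, chr19:40600810-40731585) measured 1098, 858, 1035 and 897 CPM in wildtype mice after PBS and 390, 318, 325, 228 and 191 CPM after LPS. For KO mice the values were 958, 1108, 927, 865 and 847 CPM after PBS and 295, 318, 636, 236 and 372 CPM after LPS. KO LPS library 3, with 636 CPM, was the highest after LPS and still below every PBS library. Entpd1 fell by 1.74 ± 0.24 (SE) on the log2 scale in wildtype mice (3.35-fold lower; edgeR adjusted p = 8.52e-06) and by 1.34 ± 0.23 (SE) in KO mice (2.53-fold lower; edgeR adjusted p = 7.26e-05). The microglial markers were lower after LPS too, 9 of 10 of them being called lower in each genotype, and the library with the most Entpd1 had the most microglial marker reads in 3 of 4 groups, as that with the least had the least in 3 of 4. For border macrophage marker reads the lowest library was shared in 3 of 4 groups and the highest in 2 of 4. The part of either cell type in the fall of Entpd1 was not tested. The sequence before the start of its canonical transcript, which lies within the annotated gene, held none of the motifs searched and is shown for comparison with P2rx7, the other gene that fell.
Entpd1 (chr19:40647964-40648213, plus strand): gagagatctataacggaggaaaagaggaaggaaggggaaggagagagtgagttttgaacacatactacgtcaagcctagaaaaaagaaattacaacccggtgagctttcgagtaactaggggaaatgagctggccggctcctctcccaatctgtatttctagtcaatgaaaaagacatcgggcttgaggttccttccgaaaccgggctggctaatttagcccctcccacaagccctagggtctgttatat

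Nt5e (ENSMUSG00000032420, chr9:88209089-88254146) was the scarcest of the 10 genes together with P2ry14. It was at 1.67, 4.96, 2.49 and 4.84 CPM in wildtype mice after PBS and at 2.44, 10.4, 7.04, 13.1 and 11.0 CPM after LPS, and at 3.49, 1.57, 2.99, 5.34 and 6.80 CPM after PBS and 14, 8.11, 5.44, 11.4 and 0.793 CPM after LPS in KO mice. Most LPS libraries were above the PBS libraries, but the groups overlapped through wildtype LPS library 1 and KO LPS libraries 3 and 5. The log2 fold change was 1.33 (95% confidence interval 0.05 to 2.61; edgeR adjusted p = 0.0898) in wildtype and 0.98 (-0.19 to 2.15; edgeR adjusted p = 0.165) in KO mice. DESeq2 on the same counts gave 1.34 with an adjusted p of 0.0479 in wildtype mice, and a fit of the wildtype groups alone gave 1.34 with an edgeR adjusted p of 0.0359, so the wildtype result lay at the edge of the threshold. With 1 library left out at a time, the lowest edgeR adjusted p was 0.0402 in wildtype and 0.0311 in KO mice. Nt5e was called in 1 such fit in each genotype. The library with the least Nt5e was the one with the least neuron marker reads in 4 of 4 groups, and that with the most had the most in 2 of 4. For astrocyte markers both were shared in 3 of 4 groups. KO LPS library 5, with the least Nt5e of all, also had the lowest mural and fibroblast marker sum, 17.8 CPM where the others had 65.6 to 538. Per kilobase of exon, Entpd1 exceeded Nt5e by 213 to 811 times in wildtype libraries after PBS and by 21.5 to 197 times after LPS. In KO libraries it did so by 153 to 870 times after PBS and by 25.5 to 578 times after LPS. The ratio had no overlap between treatments in wildtype mice and overlapped in KO mice.

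The genes that differed most between LPS and PBS were compared with neutrophil and monocyte markers, of which 6 of 10 were called higher after LPS in wildtype and 7 of 10 in KO mice. KO LPS library 3 had the highest sum of these markers, 603 CPM, and also the most Adora2a, Adora2b, Adora3 and Entpd1 of its group. In wildtype mice after LPS, library 4 had the highest sum, 565 CPM, and the most Adora3, whereas Adora2a and Adora2b were highest in library 5, with a sum of 400 CPM. Whether infiltrating cells contributed to these levels was not tested. Without the 4 libraries richest in oligodendrocyte marker reads, 1 per group, an alternative chosen after seeing the data, the log2 fold changes in wildtype and KO mice were 3.11 and 3.11 for Adora2a, 3.01 and 1.84 for Adora2b, 1.05 and 1.63 for Adora3, -1.75 and -1.71 for P2rx7, and -1.85 and -1.25 for Entpd1.

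KO and wildtype mice were compared within each treatment, to ask whether loss of PARK7/DJ-1 went with a difference in these genes. None of the 10 genes passed the test. A gene was called here at an unadjusted p under 0.05 with a log2 fold change of at least 0.5 in size. By edgeR, 0 of 10 genes were called after LPS, where 1.31% of all genes tested were, and 0 after PBS, where 0.8% were. Of the 10, 0 had an unadjusted p under 0.05 in either comparison, and 0 did in DESeq2. By edgeR 482 of 18739 genes had one after LPS and 195 after PBS. Both shares are below 0.05, so 0 of 10 does not set these genes apart. With 1 library left out at a time, the lowest edgeR unadjusted p after LPS was 0.0358 for Adora3, 0.0421 for Entpd1 and 0.0428 for P2rx4. Still 0 of the 10 genes were called. KO and wildtype libraries overlapped for each of the 10 genes in both treatments, where 0.219% of all genes did not overlap after LPS and 0.971% after PBS.

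After LPS, the lowest unadjusted p was 0.123 for Adora3, which was 0.32 higher in KO mice on the log2 scale (95% confidence interval -0.10 to 0.74). Entpd1 was 0.35 higher (-0.11 to 0.82) and Adora2b 0.45 lower, with a log2 fold change of -0.45 (-1.21 to 0.32). The narrowest intervals were those of P2rx4, at -0.08 (-0.38 to 0.21), and P2ry6, at 0.11 (-0.25 to 0.46). P2rx7 had -0.23 (-0.69 to 0.23). Those of the scarcer genes were wide, from -1.26 to 0.65 for Adora2a, from -0.91 to 1.44 for Adora1, from -1.21 to 0.68 for P2ry14 and from -1.29 to 1.01 for Nt5e. A 2-fold difference in at least 1 direction lay within each of these intervals and was not detectable. The edgeR adjusted p was 1.00 for each of the 10 genes.

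After PBS, the abundant genes lay close together in the genotypes. The log2 fold change of KO against wildtype mice was -0.05 (-0.54 to 0.45) for Entpd1, -0.04 (-0.48 to 0.41) for Adora3, -0.05 (-0.42 to 0.33) for P2ry6, -0.06 (-0.54 to 0.42) for P2rx7 and -0.08 (-0.40 to 0.23) for P2rx4. The scarcer genes had -0.45 for P2ry14, -0.40 for Adora1, -0.31 for Adora2a, 0.13 for Adora2b and 0.21 for Nt5e, with intervals that all included 0.

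The LPS differences of the genotypes were compared in the interaction term, KO minus wildtype. It was 0.36 (-0.25 to 0.97) for Adora3, 0.40 (-0.28 to 1.08) for Entpd1, -0.58 (-1.72 to 0.57) for Adora2b, 0.01 (-1.34 to 1.36) for Adora2a and -0.17 (-0.83 to 0.49) for P2rx7. For the genes not called after LPS it was -0.0013 for P2rx4, 0.15 for P2ry6, 0.18 for P2ry14, 0.66 for Adora1 and -0.35 for Nt5e, and each interval included 0. Without the 4 libraries richest in oligodendrocyte marker reads the term was -1.18 for Adora2b, 0.57 for Adora3 and 0.60 for Entpd1, and none passed. By edgeR 0 of the 10 genes passed, and 0% of all genes did, with 0 of the 10 at an unadjusted p under 0.05. DESeq2 called 0 of the 10 and 0 of all genes as well. Of 18739 genes 180 had an unadjusted p under 0.05 by edgeR. That is a smaller share than 0.05, so the test was conservative here and 0 of 10 does not set these genes apart.

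**Figure D4:**
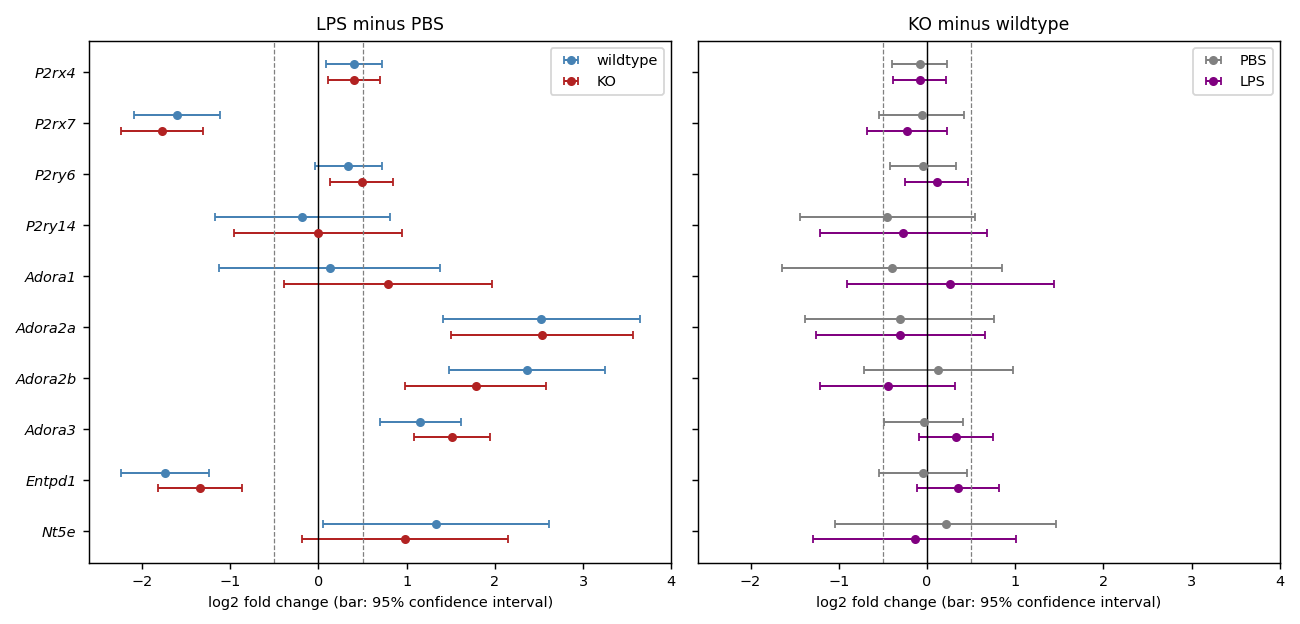
Log2 fold changes of the 10 genes with their 95% confidence intervals, LPS minus PBS in wildtype and KO mice (left) and KO minus wildtype mice after PBS and after LPS (right); dashed lines mark 0.5 and -0.5. On the left the intervals of Adora2a, Adora2b, Adora3, P2rx7, Entpd1 and P2rx4 in both genotypes, of P2ry6 in KO mice and of Nt5e in wildtype mice excluded 0, and every interval on the right included 0.

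For each gene the protein-coding genes with the most similar pattern over the 19 libraries were sought among 14468 genes, by the root mean square (RMS) difference of log2 CPM values that were centred on each gene's mean. Much of the variation of the genes that rose or fell is the treatment itself. P2rx7, with an SD of 0.93 on the log2 scale, was close to Arhgap45 (RMS difference 0.10), which encodes a GTPase-activating protein. Entpd1 was closest to Retreg1 (0.14), a receptor for autophagy of the endoplasmic reticulum, and Tgfbr1 (0.17), a TGF-beta receptor. Adora3 lay closest to Myd88 (0.14), the adaptor of most Toll-like receptors, and Map2k3 (0.18), a kinase upstream of p38. Nearest to Adora2b were Rab11fip1 (0.29) and Gas7 (0.30). Adora2a had no near neighbour, with Cdc42ep2 (0.48) and F3 (0.50), the gene of tissue factor, against its own SD of 1.47. Adora1 was close to Daam2 (0.19). Nt5e had Pawr (0.31) and C1qtnf1 (0.35) as its closest genes. The genes that changed least were nearest to Actr5 (0.09) and Neu1 (0.10) for P2rx4, to Bmp2k (0.13) and Sp3 (0.17) for P2ry6, and to Pnma8c (0.38) and AI593442 (0.38) for P2ry14.

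Of 39 other genes of nucleotide and adenosine signaling, 32 could be tested. In wildtype mice 8 were called higher and 8 lower after LPS, where 18.4% and 17.4% of all genes were. In KO mice 9 were called higher and 10 lower, where 20.1% and 19% of all genes were. With a replicate block these were 8 and 9, without P2rx5 and P2ry1. The median log2 fold change of the 32 was -0.20 in wildtype and -0.14 in KO mice, beside -0.06 and -0.01 over all genes tested. The 7 genes that could not be tested (P2rx2, P2rx3, P2ry4, Entpd8, Enpp3, Entpd4 and Slc28a1) had 0 to 12 counts in any library. Entpd4 has a near-identical copy, Entpd4b, so that its counts are uncertain. Between KO and wildtype mice 0 of the 32 were called after LPS or after PBS, where 1.31% and 0.8% of all genes were, so that few or no calls in a list of this size do not set it apart.

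Among genes of nucleotide release, 2 of 5 rose after LPS in each genotype, Panx1, the ATP-permeable pannexin channel (log2 fold changes of 0.62 in wildtype and 0.67 in KO mice), and Lrrc8a, a subunit of volume-regulated anion channels (1.14 and 1.13). The other P2Y receptors included the largest differences in both directions of the list. P2ry2, a receptor for ATP and UTP, was at 2.89 ± 0.945 CPM (SD, n = 4) in wildtype mice after PBS and at 79.9 ± 18.2 CPM (SD, n = 5) after LPS, a 27.6-fold rise, and it rose 34.7-fold in KO mice. P2ry12, the ADP receptor of resting microglia, went from 2286 ± 548 to 181 ± 86.4 CPM in wildtype mice (log2 fold changes of -3.66 in wildtype and -3.36 in KO mice), and P2ry13, another ADP receptor, had -1.48 and -1.41. P2ry1 was called lower in KO mice (-1.32) and had -0.70 in wildtype mice without passing the test. Of the other P2X channels P2rx1 fell in both genotypes (-2.00 and -1.63), whereas P2rx5 (1.88, higher) and P2rx6 (-1.23, lower) were called in KO mice, with 1.08 and -0.77 in wildtype mice that were not called. In KO mice P2rx5 had 0 to 10 counts after PBS and 1 to 30 after LPS, and the groups overlapped (95% confidence interval 0.44 to 3.32; edgeR adjusted p = 0.0314). P2rx6 had 26 to 52 and 5 to 25 counts (-2.04 to -0.42; edgeR adjusted p = 0.0135). In the interaction 0 of the 32 genes passed.

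Of the 6 other ectoenzymes tested that consume nucleotides, 1 was called higher and 2 lower in each genotype, and Entpd2, Entpd3 and Acp3 were not called. Cd38, which hydrolyses NAD, went from 16.4 ± 0.729 to 127 ± 36.8 CPM in wildtype mice (log2 fold changes of 2.96 and 2.86 in wildtype and KO mice). Alpl, a phosphatase that can dephosphorylate AMP and is abundant in brain endothelium, fell (-2.83 and -2.45), while 4 of 7 endothelial markers were called lower in each genotype. Another of the 7, Cdh5, was called higher in KO mice (1.28) and had 1.31 in wildtype mice, which did not pass, and the part of endothelial cells in the fall of Alpl was not tested. Enpp1, a phosphodiesterase that cleaves ATP, fell as well (-0.95 and -0.75). None of the 3 intracellular NTPDases tested was called.

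In the handling of adenosine inside and across the membrane, 2 nucleoside transporters rose in both genotypes, the concentrative transporter Slc28a2 (3.16 and 3.19) and the equilibrative transporter Slc29a2 (2.08 and 2.14). Slc29a3, the transporter of lysosomes, fell (-1.01 and -1.25), with LPS and PBS libraries that overlapped in wildtype mice. Slc28a3, with 5 to 159 counts per library, was called lower too (-1.77 and -2.04; edgeR adjusted p = 0.0416 and 0.0126). Its libraries overlapped in both genotypes. Slc29a1 was called lower in wildtype mice (-0.55) and had -0.43 in KO mice, under the fold minimum. Slc29a4 was called lower in KO mice (-1.84) and had -0.98 in wildtype mice, which did not pass. Of the 5 genes of adenosine metabolism, 2 rose in each genotype, Ahcy, the hydrolase that releases adenosine from S-adenosylhomocysteine (1.58 and 1.50), and Pnp, purine nucleoside phosphorylase (0.84 and 0.89), whose reads may be shared with its near-identical copy Pnp2. Ada and Adk, which deaminate and phosphorylate adenosine, had 0.08 and 0.07 in wildtype and -0.25 and 0.23 in KO mice and were not called.

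**Figure D5:**
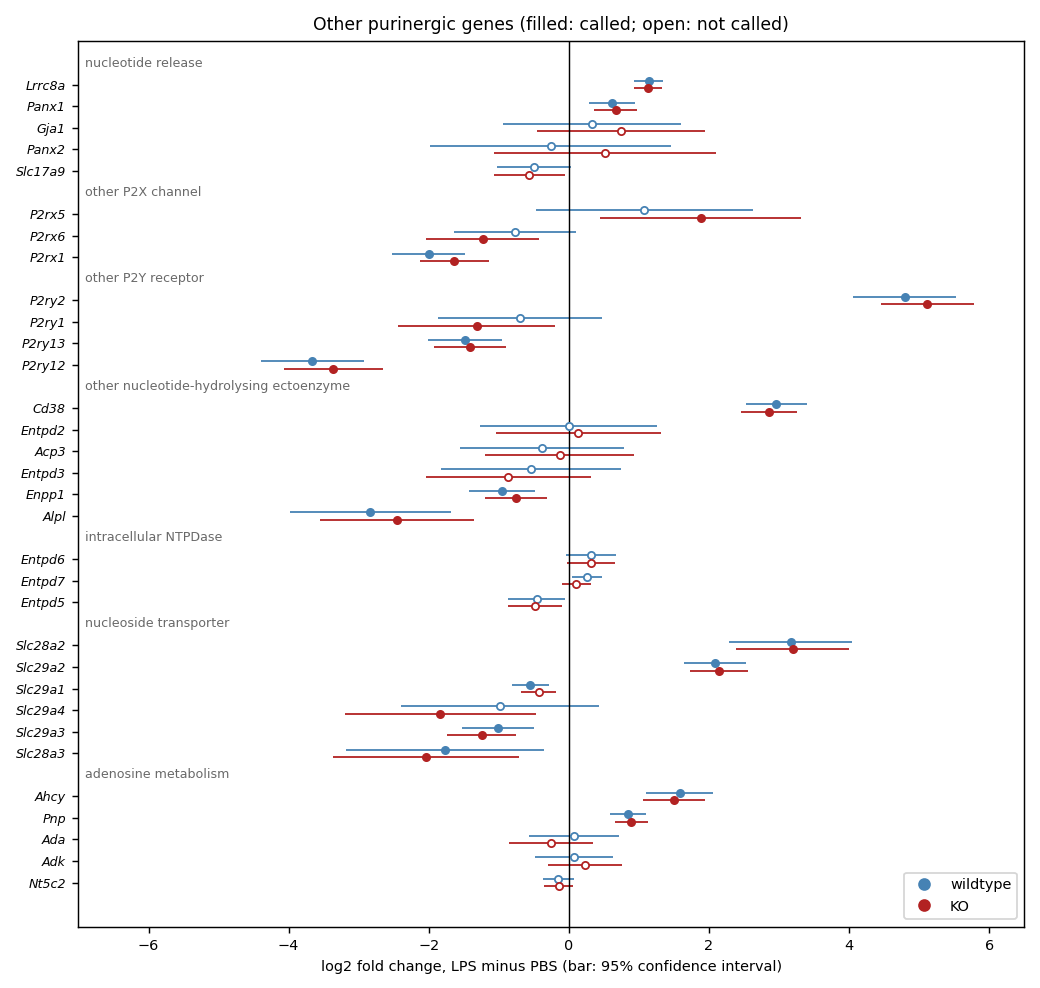
Log2 fold changes after LPS of the 32 other genes of nucleotide and adenosine signaling that could be tested, with 95% confidence intervals, in wildtype and KO mice, grouped by role; filled points were called and open points were not. P2ry2, Slc28a2, Cd38 and Slc29a2 lay highest and P2ry12 and Alpl lowest in wildtype mice.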

How the data were processed

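Per the labels and methods, the authors depleted ribosomal RNA, made stranded libraries, removed adapters with Cutadapt, and used STAR 2.7.9a to map reads to GRCm39. The deposited values are raw counts per Ensembl gene, which the authors did not normalize; the strand setting of the counting is not given in the sources used here. Libraries of 1 group always differed beyond counting noise (smallest chi-square per degree of freedom 6.50 over 36 pairs) and each counted as 1 replicate.

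Counts were analysed with edgeR 4.0.16 in R 4.3.3. Low genes were removed by filterByExpr (count at least 10, total at least 15), libraries were scaled with TMM, and all 19 libraries entered 1 quasi-likelihood fit with 4 groups. Contrasts were tested with Benjamini-Hochberg adjustment over 18739 genes; thresholds were the study's. CPM used TMM-scaled library sizes, log2 CPM had a prior count of 2, and intervals cover 95%. Shares were compared with exact two-sided permutation tests. DESeq2 1.42.0, other scalings and filters, left-out libraries, fits of 2 groups, a block on replicate number and marker adjustments were alternatives. Scripts were tested on simulated data.

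The 10 genes and all lists were chosen with earlier results of these data known. All 10 genes are named in every comparison; of the 39 further genes, those called with the largest changes per role (at most 3 per role and direction), with P2ry12 and P2ry13 (genes named as not called were added after their values were seen); and the 2 genes with the nearest pattern for each of the 10, some of which are not reported here. The marker Fcrls could not be matched.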

Additional observations from a re-analysis of the deposited data

Results flagged for a closer look

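Over 60 groups of 4 or 5 values (the CPM of each gene, and the shares), 2 held a library whose gap to the nearest other value was large for the group's range by Dixon's test, which flags about 1 group in 20 by chance. P2ry14 was at 6.68 CPM in KO PBS library 1, where the other libraries of the group were at 2.12 to 2.59 CPM. Adora1 made up 15.4% of the adenosine receptor counts per kilobase in KO LPS library 1, where the others were at 0.995% to 4.37%. Both libraries had the most oligodendrocyte and astrocyte marker reads of their groups, and the part of this in either value was not tested.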

How the results depend on the processing

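The 5 calls of LPS against PBS in each genotype (Adora2a, Adora2b and Adora3 higher, P2rx7 and Entpd1 lower) kept their direction and their side of the threshold under every alternative run. P2ry14 had the fewest counts, 10 to 129 per library, and the part of depth in its wide interval was not tested. At any fold change, 5 genes passed as higher in KO mice (P2rx4 and P2ry6 in addition), where 24.2% of all genes did, and 4 in wildtype mice (P2rx4 in addition), where 22% did. Without a filter on low counts 2 of the 39 further genes (P2ry4 and Slc28a1, at most 4 counts per library) were called between KO and wildtype mice after LPS. The share of Adora2a from counts not divided by exon length differed by 5.50 percentage points in wildtype mice (exact permutation p = 0.0476).

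Leaving out each library in turn, 3 to 5 of the 10 genes were called higher after LPS in KO mice, the 5 without KO LPS library 1, where P2rx4 and P2ry6 also passed the fold minimum. The ranges that crossed 0, on the log2 scale, were of genes not called in that comparison. LPS against PBS had -0.33 to 0.24 for P2ry14 and -0.15 to 0.81 for Adora1 in wildtype mice, and -0.26 to 0.42 for P2ry14 in KO mice. KO against wildtype mice after PBS had -0.16 to 0.048 for P2rx7, -0.74 to 0.27 for Adora1, -0.77 to 0.12 for Adora2a, -0.14 to 0.65 for Adora2b, -0.16 to 0.075 for Adora3, -0.11 to 0.018 for Entpd1 and -0.052 to 0.43 for Nt5e. After LPS it had -0.25 to 0.019 for P2rx4, -0.37 to 0.063 for P2rx7, -0.014 to 0.22 for P2ry6, -0.32 to 0.56 for Adora1, -0.50 to 0.041 for Adora2a and -0.44 to 0.15 for Nt5e. The interaction had -0.42 to 0.47 for Adora2a and -0.31 to 0.12 for P2rx7. Some unadjusted p fell under 0.05 by edgeR with 1 library left out. KO against wildtype mice after LPS reached 0.0358 for Adora3, 0.0421 for Entpd1 and 0.0428 for P2rx4. The interaction of Adora2b reached 0.0477, over a range of -1.10 to -0.29. None of these was called.

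No share passed after adjustment, which these group sizes allow only when several shares have a small p. Shares, as differences in percentage points without 1 library, were -4.00 to 2.47 for P2rx7 (KO against wildtype after LPS) and -0.358 to 1.58 (after PBS). For Adora1 they were -1.79 to 1.87 (KO against wildtype after LPS), -4.67 to 1.51 (after PBS) and -5.15 to -1.08 (LPS in KO). For Adora2a they were -1.15 to 0.219 (KO against wildtype after PBS), 2.13 to 3.16 (LPS in KO) and 2.32 to 4.25 (LPS in wildtype). For Adora2b they were -6.05 to -2.30 (KO against wildtype after LPS), -0.372 to 3.82 (after PBS) and 5.76 to 10.7 (LPS in wildtype). For Adora3 they were -5.55 to 6.00 (KO against wildtype after PBS) and -3.78 to 0.401 (LPS in KO).

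Values near 0 changed sign in other settings. P2ry14 after LPS in KO mice was 0.0078 with DESeq2's size factors, 0.0057 with DESeq2, 0.014 with only the KO groups, and 0.24 without the 4 libraries richest in oligodendrocyte reads, where it was 0.044 in wildtype mice. Without those libraries, KO against wildtype mice after LPS was -0.034 for Adora1 and the interaction was 0.040 for P2rx7. With other brain cell markers as a covariate, KO against wildtype mice after LPS was -0.13 for Adora1 and the interaction was -0.010 for Adora2a, which was -0.020 without a low-count filter. Leaving out those 4 libraries and the covariate were alternatives chosen after seeing the data, and the cause of each change was not tested.

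Samples of the same replicate number were taken to share only that number, since not every pair's deviations correlated over 0.1. The correlations ran from -0.042 to 0.58 (wildtype) and 0.027 to 0.54 (KO) for LPS against PBS, over 0.1 in 3 of 4 and 4 of 5 pairs, and were over 0.1 in 1 of 5 pairs of KO and wildtype mice after LPS and in 2 of 4 after PBS. With a replicate block, 3 genes were called higher and 2 lower after LPS in each genotype, 0 between genotypes, and no call of the 10 genes changed, though the adjusted p of P2rx4 in wildtype mice, under the fold minimum in any case, was 0.0675. Entpd1 in KO against wildtype mice after PBS was then 0.0088.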
